A study of Mus musculus with 13 samples.

Results

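The genes described here make, break down and control glycogen in the liver: Gys2, Pygl, Ugp2, Gbe1, Gyg, Phka2, Ppp1r3b, Ppp1r3c and Gsk3b. They were chosen by name, as probe sets whose platform annotation gives exactly 1 gene symbol, and 9 of the 19938 named genes were found, each with 1 probe set. Liver RNA was measured in 6 mice given streptozotocin (STZ) and in 7 mock-injected controls, all male C57BL/6N animals of wild-type genotype. STZ is a glucose analogue that kills pancreatic beta cells, the source of insulin, and thereby models type 1 diabetes. It was injected intraperitoneally at 65 mg/kg on 5 consecutive days into mice of 10 to 16 weeks, and controls were injected with citrate buffer. Livers were taken 9 to 11 weeks later, at 5 to 6 months of age, and the labels call the mice of a group biological replicates. The series title asks how the liver adapts mitochondrial function in diabetic states, and glycogen genes were measured on the same arrays. The labels give no time of day and no feeding state at death.

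Liver cells store glucose as glycogen after a meal and release it between meals. Glucose 1-phosphate is activated to UDP-glucose, a chain is primed on the protein glycogenin, glycogen synthase lengthens it and a branching enzyme adds branch points. Glycogen phosphorylase, switched on by phosphorylase kinase, cuts glucose units off again. Insulin favours storage, partly by restraining glycogen synthase kinase 3 and partly through regulatory subunits that bring protein phosphatase 1 to the glycogen particle, while glucagon favours breakdown. Arrays measure transcripts and not the phosphorylation through which synthase and phosphorylase are switched, and a bulk liver sample cannot tell fewer cells of a type from less RNA per cell.

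Values are log2 intensities after robust multi-array averaging, and each difference is the STZ mean minus the control mean in log2 units, followed by its standard error from the fit. A gene passed when its adjusted p in limma, adjusted over all 19938 genes, was under 0.05. Among the 13 arrays, correlations across genes were 0.986 to 0.995 within STZ, 0.993 to 0.997 within controls and 0.982 to 0.994 between the groups. Arrays carry no read depth, so the number of arrays limits the precision. Of 7 hepatocyte marker genes, 1 was higher and 2 were lower in STZ livers, and their mean level lay at 12.78 to 12.81 in STZ and 12.78 to 12.85 in control livers. Of 6 Kupffer cell markers 3 were higher and none lower, with mean levels of 8.88 to 9.57 in STZ and 8.74 to 9.18 in control livers. All 6 Kupffer differences were above 0 with an unadjusted p under 0.05 in limma. Over all genes, 5.09% passed as higher and 4.04% as lower, and 20.8% had an unadjusted p under 0.05 in either direction. Among 5 endothelial markers only Lyve1 passed (0.50 ± 0.11), and among 5 stellate markers Dcn (0.35 ± 0.06) and Lrat (-0.47 ± 0.08) did. Ptprc passed (0.31 ± 0.09) among 3 leukocyte markers, with Cd3e at -0.04 ± 0.07 and Ms4a1 at -0.11 ± 0.07. Alas2 of erythroid cells was lower (-1.58 ± 0.26, with all 6 STZ livers below every control, as for 1.56% of all genes). The other of the 2 erythroid markers, Slc4a1, differed by -0.05 ± 0.08 and did not pass. Of the markers of bile duct, skeletal muscle, pancreatic acinar and fat cells (4, 5, 4 and 3 measured), none passed in limma, with 1, 4, 0 and 1 at an unadjusted p under 0.05. The mean level of the muscle markers lay at 6.29 to 6.61 in STZ and 6.46 to 7.04 in control livers. The part of these shifts in the results below was not tested.

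Of the 9 glycogen genes, Ugp2 was higher in STZ livers and Ppp1r3b, Gys2 and Pygl were lower. The other 5, Gbe1, Gyg, Phka2, Ppp1r3c and Gsk3b, did not pass. Over all genes, 5.09% were called higher and 4.04% lower, so 9.12% were called in either direction. The median difference of the 9 genes was -0.11 and that of all genes -0.01. All 9 lay above the median gene in mean level, so none was read near the dim end of the scale.

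**Figure D1:**
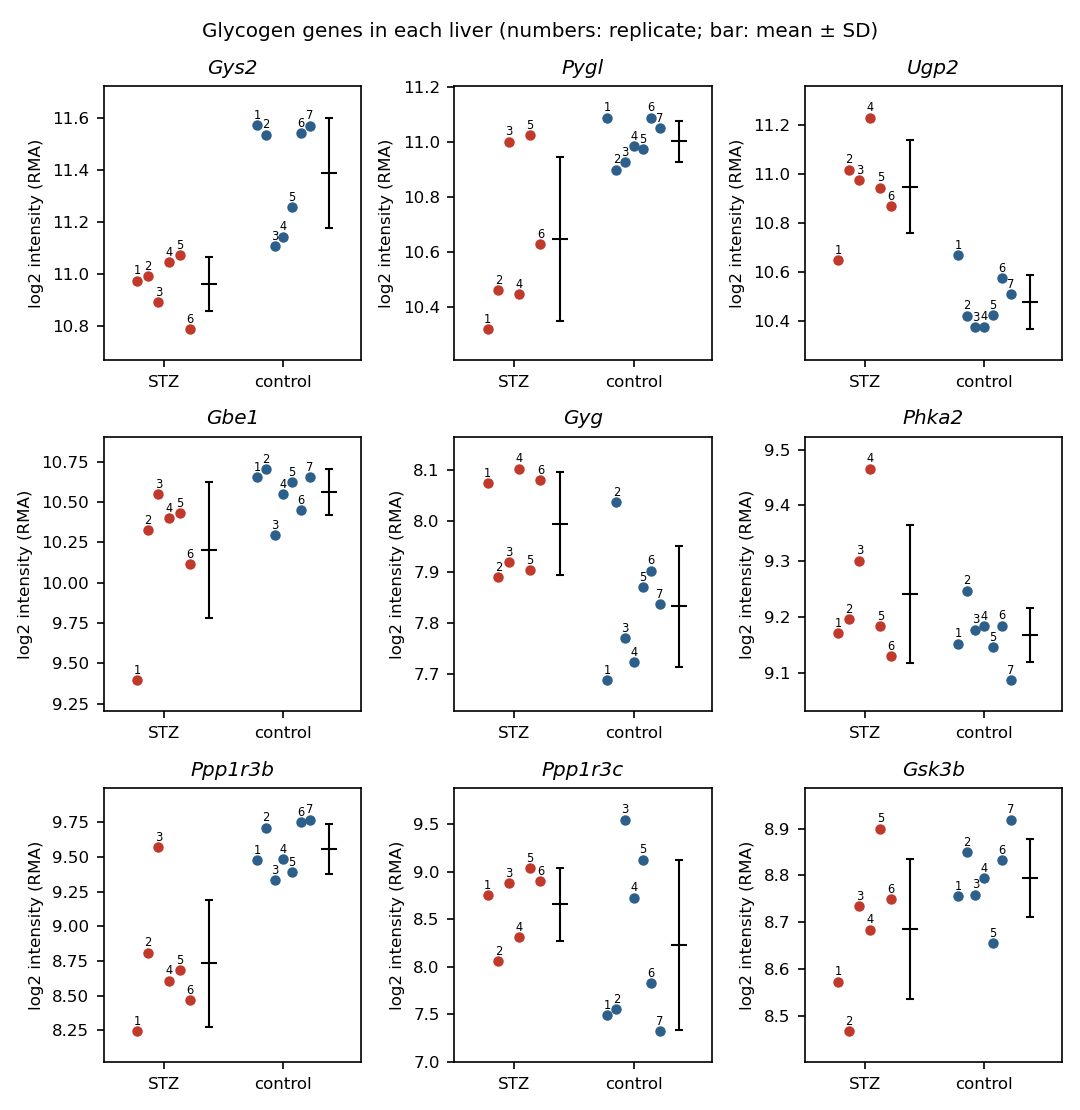
Log2 intensity of the 9 glycogen genes in each STZ (red, left) and control (blue, right) liver, with a number for the replicate and a bar for mean ± SD (n = 6 STZ, n = 7 control); each panel has its own axis range. Gys2 is below all controls in all 6 STZ livers, Pygl in STZ replicates 3 and 5 lies among the controls, and Ppp1r3c spans 7.33 to 9.55 in controls.

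At the step that supplies the building block, Ugp2 encodes UDP-glucose pyrophosphorylase, which makes the UDP-glucose that glycogen synthase uses. Its level ran from 10.65 through a median of 10.96 to 11.23 in STZ livers, against 10.38, 10.43 and 10.67 in control livers. In 5 of 6 STZ livers it was above every control, and STZ replicate 1, the lowest, lay just under the highest control. The means were 10.95 ± 0.19 (SD, n = 6) in STZ and 10.48 ± 0.11 (SD, n = 7) in control livers, a difference of 0.47 ± 0.08 or 1.38-fold (adjusted p = 0.00124, limma). UDP-glucose also feeds sugar transfer to other molecules, and of 6 measured genes that use or interconvert it, 1 was higher and none lower. That gene was Ugdh, the dehydrogenase that turns UDP-glucose into UDP-glucuronate for conjugation reactions (0.23 ± 0.06, adjusted p = 0.0320, limma), and the median of the 6 was -0.05. The Ugdh call was lost in 8 of 13 leave-one-out fits, each of which drops 1 array.

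For priming, elongation and branching, the synthase gene passed and the primer and branching genes did not. Gys2 encodes the liver form of glycogen synthase, which adds glucose units to the growing chain. STZ replicates 1 to 6 read 10.98, 10.99, 10.89, 11.05, 11.07 and 10.79, against 11.57, 11.54, 11.11, 11.14, 11.26, 11.54 and 11.57 in control replicates 1 to 7. All STZ livers lay below all controls, which held for 1.56% of all genes in that direction, and the controls themselves stood in a higher set of 4 and a lower set of 3, replicates 3, 4 and 5. The difference was -0.43 ± 0.09, or 1.35-fold lower in STZ (adjusted p = 0.00478, limma), with means of 10.96 ± 0.10 (SD, n = 6) in STZ and 11.39 ± 0.21 (SD, n = 7) in control livers. Gyg encodes glycogenin, the protein primer. It ran from 7.89 through 7.996 to 8.10 in STZ livers and from 7.69 through 7.84 to 8.04 in control livers, with overlap, and its difference of 0.16 ± 0.06 did not pass (adjusted p = 0.140, limma; 95% interval 0.03 to 0.30). Gbe1 encodes the branching enzyme. Its STZ values ran from 9.40 through 10.36 to 10.55, against 10.29, 10.63 and 10.70 in control livers, and it did not pass either (-0.36 ± 0.14, adjusted p = 0.151, limma). The lowest Gbe1 value belonged to STZ replicate 1, and without that array the difference was -0.20.

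On the side of breakdown, Pygl encodes liver glycogen phosphorylase, the enzyme that releases glucose 1-phosphate. Its STZ replicates 1 to 6 read 10.32, 10.46, 11.00, 10.44, 11.02 and 10.63, while the controls ran from 10.90 through 10.98 to 11.09. In STZ replicates 1, 2, 4 and 6 Pygl was below every control, and replicates 3 and 5 were inside the control range. The SD was therefore 0.30 in STZ (n = 6) and 0.08 in control livers (n = 7). The difference was -0.35 ± 0.10, or 1.28-fold lower (adjusted p = 0.0404, limma). The call was lost in 10 of 13 leave-one-out fits (adjusted p up to 0.0996) and when each array was centred on its median (0.0622). Phka2 encodes the liver form of the regulatory alpha subunit of phosphorylase kinase. It ran from 9.13 through 9.19 to 9.47 in STZ and from 9.09 through 9.18 to 9.25 in control livers and did not pass (0.07 ± 0.06, adjusted p = 0.536, limma). Phkb, which encodes the beta subunit of the same kinase and belongs to the wider pathway list, was lower at 8.17 ± 0.27 (SD, n = 6) in STZ and 8.48 ± 0.06 (SD, n = 7) in control livers. The Phkb difference of -0.31 ± 0.09 passed narrowly (adjusted p = 0.0427, limma) and was lost in 11 of 13 leave-one-out fits and when arrays were centred on their median (0.0710).

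The promoter windows of Ppp1r3c and Pygl are shown because they were the windows among these genes in which a searched motif was found. RefSeq windows (GRCm38.p6) were matched for 7 of the 9 genes, all but Gys2 and Ppp1r3b, with 2 windows for Ugp2. The 250 bases before each listed start were searched on both strands for the E-box CACGTG, for TGACG, the cAMP response element half-site, and for GTAAACA, a FOXO site, which do not overlap one another in these windows. Capitals mark the matches. The E-box was found in 6.02%, the half-site in 17.8% and the FOXO letters in 3.17% of 32851 windows of that length, and in 1, 1 and 0 of the 8 windows of these genes. A match is a description of letters and not a bound site.
Ppp1r3c, chr19:36736605-36736854, minus strand: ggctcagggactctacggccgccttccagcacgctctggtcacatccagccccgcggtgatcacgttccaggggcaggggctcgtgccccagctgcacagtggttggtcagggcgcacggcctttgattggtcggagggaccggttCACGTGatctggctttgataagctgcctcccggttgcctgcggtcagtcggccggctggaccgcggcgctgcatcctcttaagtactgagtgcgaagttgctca
Pygl, chr12:70227684-70227933, minus strand: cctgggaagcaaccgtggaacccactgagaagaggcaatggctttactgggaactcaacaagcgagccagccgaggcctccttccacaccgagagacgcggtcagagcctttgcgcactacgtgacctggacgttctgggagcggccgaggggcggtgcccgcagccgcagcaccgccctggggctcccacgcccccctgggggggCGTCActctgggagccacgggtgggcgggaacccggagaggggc

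Among the regulators, Ppp1r3b encodes the hepatic glycogen-targeting subunit of protein phosphatase 1, which brings the phosphatase to glycogen, where it activates glycogen synthase. It had the largest difference of the 9 genes. STZ replicates 1 to 6 read 8.25, 8.81, 9.57, 8.61, 8.69 and 8.47, and the controls ran from 9.34 through 9.48 to 9.77. In 5 of 6 STZ livers Ppp1r3b was below every control, and replicate 3 was inside the control range. The difference was -0.83 ± 0.16, or 1.78-fold lower in STZ (adjusted p = 0.00291, limma), with means of 8.73 ± 0.45 (SD, n = 6) in STZ and 9.56 ± 0.18 (SD, n = 7) in control livers. In an exact rank-sum test adjusted over all genes Ppp1r3b did not pass (adjusted p = 0.122), and there Ugp2 (0.0427) and Gys2 (0.0302) did.

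Ppp1r3c encodes a second such subunit, known as protein targeting to glycogen. STZ replicates 1 to 6 read 8.75, 8.06, 8.88, 8.31, 9.04 and 8.90, against 7.49, 7.56, 9.55, 8.73, 9.13, 7.83 and 7.33 in control replicates 1 to 7. Control replicates 3, 4 and 5 were high and the other 4 controls low, with all STZ livers between the lowest and the highest control. The SD was 0.38 in STZ (n = 6) and 0.89 in control livers (n = 7). The difference was 0.43 ± 0.33 with a 95% interval of -0.26 to 1.12 and did not pass (adjusted p = 0.524, limma). Gsk3b encodes the beta form of glycogen synthase kinase 3, which phosphorylates and restrains glycogen synthase. It ran from 8.47 through 8.71 to 8.90 in STZ and from 8.66 through 8.79 to 8.92 in control livers and did not pass (-0.11 ± 0.07, 95% interval -0.25 to 0.03, adjusted p = 0.391, limma).

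The control livers with high Ppp1r3c, replicates 3, 4 and 5, were those with low Gys2. Correlations with Gys2 were taken over the 13 arrays after each group mean was subtracted. The 3 highest among named genes were Dbp (r = 0.95), Gab1 (0.94) and Clmn (0.93), where the median r of all genes was -0.04. Picked as the highest of so many genes, such r are high by selection. The nearest gene had r = 0.96 for Gbe1 and 0.87 for Gyg, which did not pass. Dbp encodes a transcription factor whose level in liver follows the circadian clock. Dbp ran from 8.41 to 9.49 in STZ livers. It read 8.62, 8.64 and 9.44 in control replicates 3, 4 and 5 and 10.30 to 10.41 in the other 4 controls. That separation of the controls enters the r of Dbp with Gys2, which was 0.99 among the controls alone and 0.81 among the 6 STZ arrays alone. All 6 STZ livers lay below those 4 controls, and the difference of -0.61 ± 0.31 did not pass (adjusted p = 0.295, limma). Among the 6 STZ arrays alone, r between Gys2 and Ppp1r3c was -0.29.

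Clock genes were therefore set beside both, a choice made after the values were seen. Arntl, which encodes the clock activator BMAL1, read 7.91, 6.47, 8.37, 6.96, 8.06 and 8.31 in STZ replicates 1 to 6. In control livers it read 8.18, 7.77 and 7.11 in replicates 3, 4 and 5 and 5.97 to 6.25 in the other 4. Every STZ value lay above those 4 controls. The Arntl difference of 0.90 ± 0.39 did not pass (adjusted p = 0.192, limma). Ppp1r3c was lowest in STZ replicates 2 and 4, where Arntl was lowest too, and r between them was 0.96 among the 6 STZ arrays. Over the 13 measured clock genes, r with Ppp1r3c in those 6 arrays ran from -0.94 for Per2 to that of Arntl. It was 0.92 for Nr1d1, -0.86 for Per1, and weaker for Dbp (-0.44), Nr1d2 (-0.42) and Cry1 (-0.41). With Gys2 it ran from -0.51 for Arntl through 0.11 for Per1 to 0.81 for Dbp, which had been picked for its likeness to Gys2. None of 13 measured clock genes passed between STZ and control livers in limma (2 had an unadjusted p under 0.05, as did 20.8% of all genes). Correlations are given as descriptions of arrays that share 1 normalization, and whether the mice differed in time of death was not tested.

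**Figure D2:**
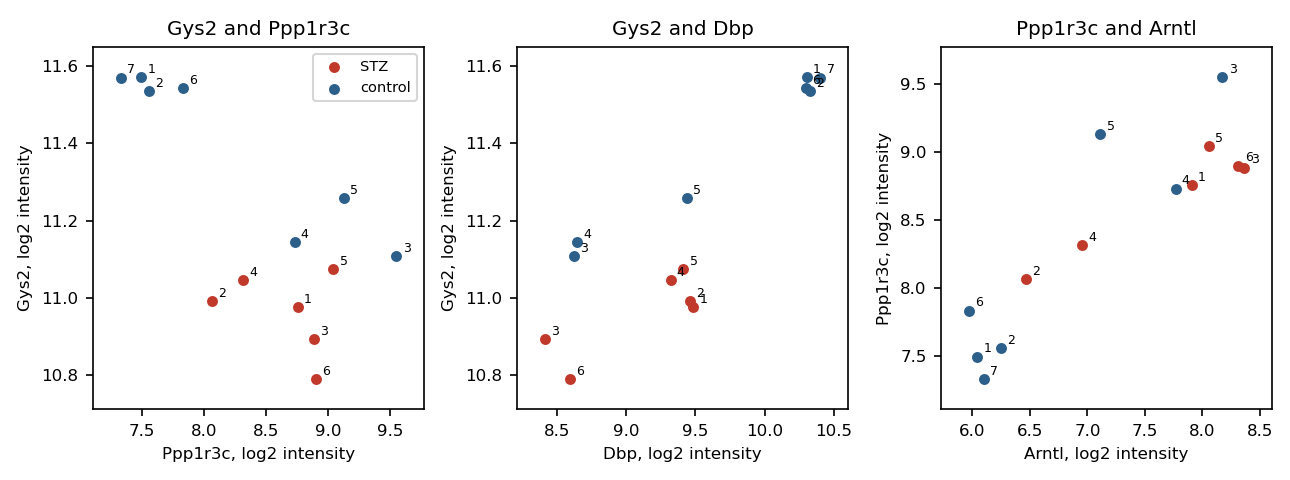
Log2 intensity of Gys2 against Ppp1r3c (left) and Dbp (middle), and of Ppp1r3c against Arntl (right), 1 point per liver numbered by replicate, STZ in red and control in blue. Control replicates 3, 4 and 5 stand apart from the other 4 controls in all 3 panels, and Gys2 in the STZ livers is 10.79 to 11.07.

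The genes most like the other 3 that passed were found in the same way, so their r are also high by selection. For Pygl they were Me1 (r = 0.97), Derl2 (0.95) and Zbtb8os (0.94), against a median r of -0.09. Me1 encodes malic enzyme, which supplies NADPH for fatty acid synthesis, and it read 10.89 and 11.09 in STZ replicates 3 and 5, 8.90 to 9.78 in the other 4 STZ livers, and 11.43 to 12.10 in control livers. The STZ livers with Pygl in the control range were those with the least reduced Me1, which follows from picking Me1 for its r with Pygl. For Me1 all 6 STZ livers were below the controls, as for 1.56% of all genes. For Ugp2 the nearest genes were Rab4a (0.92), Pgs1 (0.88) and Ptdss1 (0.88), and for Ppp1r3b they were Arrdc2 (0.89), Ptges (0.88) and Hspb6 (0.88).

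Several of these genes have relatives that serve other tissues or the same step, and whether 2 relatives changed unequally was tested on their difference within each array, by an exact 2-sided permutation over all 1716 splits, adjusted over the 5 pairs. Levels of different probe sets are not comparable, so only the change between groups is read. The genes were chosen with earlier results of these data known, and the adjustment covers only the 5 pairs. Where a gene passed alone and its relative did not, the pair largely restates that gene's difference. Such a pair is no separate support for it. Gys2 minus Gys1, the muscle-type synthase, averaged 4.08 ± 0.19 (SD, n = 6) in STZ and 4.58 ± 0.18 (SD, n = 7) in control livers. Gys2 thus changed by -0.49 relative to Gys1 (exact permutation p = 0.00291, adjusted 0.0146), with 5 of 6 STZ livers below every control. Gys1 itself differed by 0.06 ± 0.08 and did not pass. Pygl changed by -0.59 relative to Pygb, the brain-type phosphorylase (exact permutation p = 0.0117, adjusted 0.0194), with 4 of 6 STZ livers below every control. Pygb itself differed by 0.24 ± 0.08 and did not pass (adjusted p = 0.0938, limma).

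Phka2 changed by 0.28 relative to Phka1, the muscle-type alpha subunit (exact permutation p = 0.00641, adjusted 0.0160), and was above every control in 4 of 6 STZ livers on that difference. Neither passed alone, with 0.07 ± 0.06 for Phka2 and -0.21 ± 0.08 for Phka1. Ppp1r3b changed by -1.26 relative to Ppp1r3c (exact permutation p = 0.0291, adjusted 0.0364), with 3 of 6 STZ livers below every control. On that difference STZ livers ran from -0.51 to 0.75. Control replicates 3, 4 and 5 read -0.21, 0.76 and 0.26, and the other controls 1.92 to 2.44. This call was lost in 8 of 13 settings that left out an array (adjusted p up to 0.0676). The Pygl and Pygb call was lost in 5 of 13. For Gsk3b relative to Gsk3a, the alpha form of the kinase, the change was -0.01 (exact permutation p = 0.828, adjusted 0.828). Over the arrays left out in turn, that value stayed between -0.03 and 0.02.

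**Figure D3:**
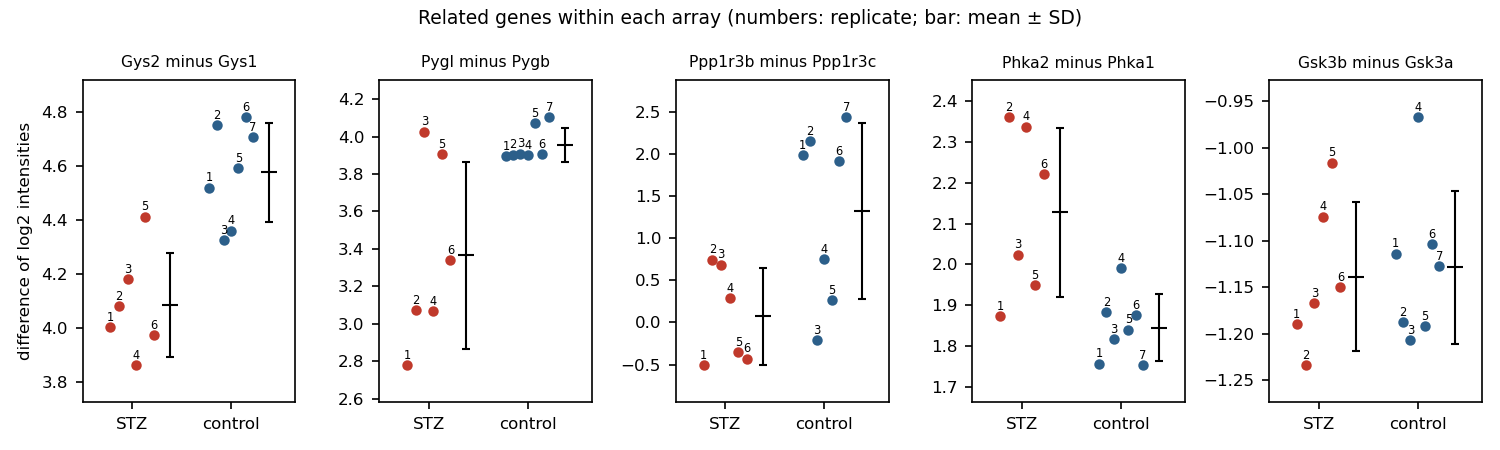
Difference of log2 intensities within each array for 5 pairs of related genes, STZ (red, left) and control (blue, right), numbered by replicate, with mean ± SD (n = 6 STZ, n = 7 control). Gys2 minus Gys1 averages 4.08 in STZ and 4.58 in control livers, and Gsk3b minus Gsk3a shows no separation.

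Most of the rest of the pathway did not pass. Of 22 other measured glycogen genes, Phkb and Stbd1 were lower, none was higher and 20 did not pass, with a median difference of -0.02. The share called over all genes was 9.12%. Stbd1 encodes a starch-binding-domain protein that ties glycogen to membranes. It averaged 7.71 ± 0.15 (SD, n = 6) in STZ and 8.07 ± 0.16 (SD, n = 7) in control livers, with a difference of -0.36 ± 0.08 (adjusted p = 0.00953, limma). The catalytic subunits of protein phosphatase 1, Ppp1ca (0.03 ± 0.05), Ppp1cb (-0.07 ± 0.05) and Ppp1cc (0.26 ± 0.08), did not pass, nor did the other targeting subunits, Ppp1r3a, Ppp1r3d, Ppp1r3e, Ppp1r3f and Ppp1r3g, at -0.06 to 0.36. The phosphoglucomutase genes Pgm1 (-0.12 ± 0.05) and Pgm2 (0.41 ± 0.13) and the lysosomal glucosidase gene Gaa (-0.01 ± 0.07) did not pass either. Ppp1cc and Pgm2 lay just above the threshold (adjusted p = 0.0533 and 0.0565, limma), each with 5 of 6 STZ livers above every control. Together, of the 31 measured glycogen genes 1 was higher and 5 were lower, beside 5.09% and 4.04% of all genes. When each array was centred on its median the split was 2 and 3.

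**Figure D4:**
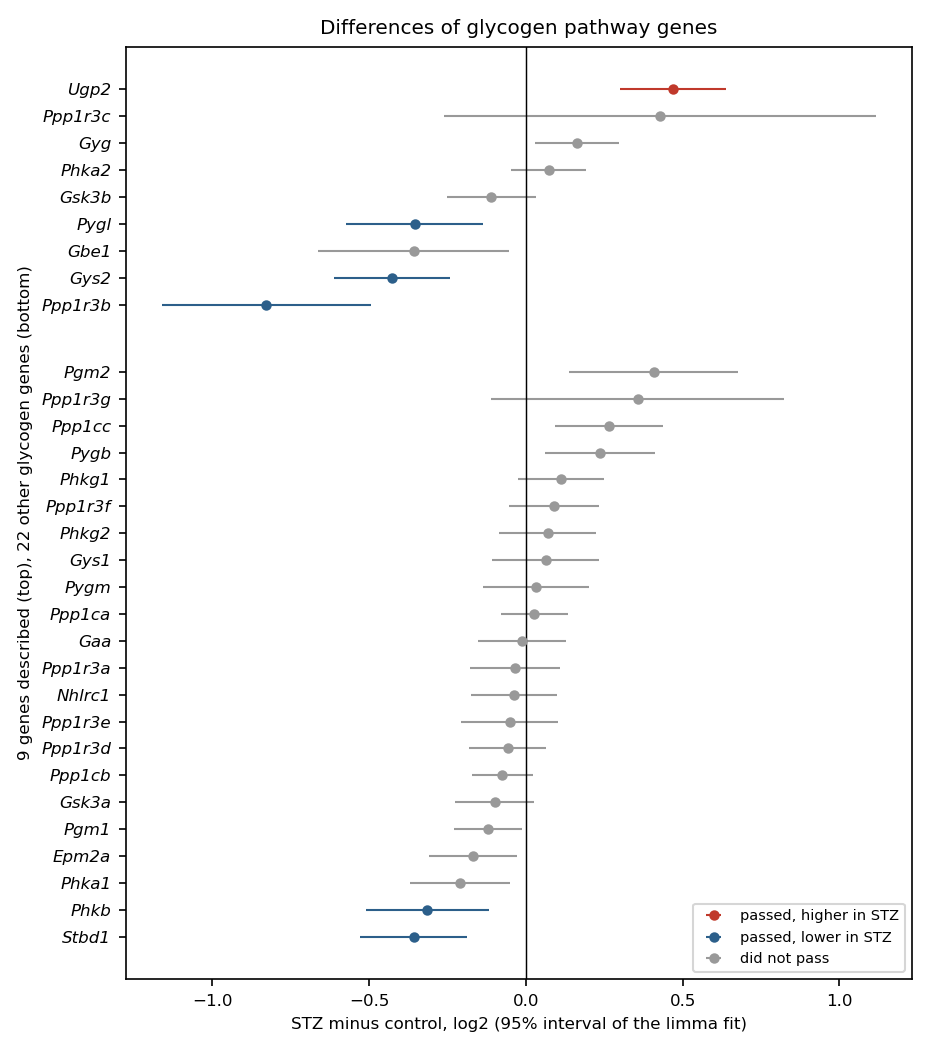
STZ minus control on the log2 scale for the 9 glycogen genes (top) and 22 other genes of the pathway (bottom), with the 95% interval of the limma fit; red passed and is higher, blue passed and is lower, grey did not pass. Ugp2 is the single gene called higher, and Ppp1r3b has the largest difference among those called.

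Genes around the pathway were counted from short lists, where over all genes 5.09% were called higher and 4.04% lower. Among 8 measured genes of glucose entry and exit, 2 were higher and none lower (median 0.05). They were Gckr, a regulator of glucose phosphorylation in hepatocytes (0.27 ± 0.06, adjusted p = 0.0138, limma), and G6pc3, a broadly expressed glucose-6-phosphatase (0.32 ± 0.08, adjusted p = 0.0250, limma). The G6pc3 call was lost in 6 of 13 leave-one-out fits. G6pc, another glucose-6-phosphatase gene of the list, went the other way and did not pass (-0.37 ± 0.13, adjusted p = 0.103, limma). All 6 STZ livers lay below the control mean of G6pc, and 3 lay below every control. On the path from insulin to glycogen synthase kinase 3, 3 of 8 genes were higher and 1 was lower (median 0.04). Higher were the receptor substrates Irs2 (0.66 ± 0.11) and Irs1 (0.50 ± 0.10) and the kinase Akt1 (0.30 ± 0.06), and lower was the PI3-kinase regulatory subunit Pik3r1 (-0.68 ± 0.09). With the mean of all its probe sets, Irs1 differed by 0.25 and still passed. The kinase Akt2, at -0.15 ± 0.05, did not pass (adjusted p = 0.0875, limma).

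On the glucagon side, 1 of 9 measured genes was higher and 2 were lower (median -0.05). The glucagon receptor Gcgr read 10.36 to 10.72 in STZ livers and 10.75 to 10.89 in control livers. It differed by -0.25 ± 0.06 (adjusted p = 0.0165, limma). The groups did not overlap, which held for 1.56% of all genes in that direction. The regulatory subunits of protein kinase A went apart, Prkar1a at 0.24 ± 0.05 (adjusted p = 0.00818, limma) and Prkar2a at -0.26 ± 0.07 (adjusted p = 0.0325, limma). For Prkar1a too the groups did not overlap, with all 6 STZ livers above every control, as for 459 of 19938 genes. Prkar2a lost its call in 9 of 13 leave-one-out fits and when arrays were centred on their median. Of the 6 subunit genes of AMP-activated protein kinase, an energy sensor whose beta subunits bind glycogen, 3 were higher and 1 was lower (median 0.16). Higher were the beta subunits Prkab1 (0.46 ± 0.10) and Prkab2 (0.21 ± 0.06) and the gamma subunit Prkag2 (0.21 ± 0.06), and lower was the catalytic subunit Prkaa2 (-0.30 ± 0.08). Prkag2 lost its call in 10 of 13 leave-one-out fits and when arrays were centred on their median, Prkaa2 in 2 and Prkab2 in 1.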

How the data were processed

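The authors deposited log2 intensities for 35556 probe sets on 13 arrays. Per the submitters' processing notes, they came from Affymetrix Expression Console 1.2 and robust multi-array averaging (RMA). RMA brings arrays to a common distribution, so an overall change in RNA per cell would not be seen. The build used is not given in the sources used here. Probe sets with exactly 1 annotated symbol (21789) were kept, with the highest mean per gene, giving 19938 genes. STZ and control were compared with limma 3.58.1 in R 4.3.3 (lmFit and eBayes, 11 residual degrees of freedom, 2-sided, Benjamini-Hochberg over all genes). The limma and permutation tests were tested on simulated data.

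The 9 genes and the lists were chosen with earlier results of these data known. Named are those 9, up to 6 passing genes per list, the pair partners, and the 3 genes most like each passing member (no predicted models). Genes of a list that did not pass are named to complete a family, and clock genes, Me1, the other pathway values and the Dbp covariate were chosen after the values were seen. List genes without a probe set of exactly 1 symbol are not analysed here. Same-numbered mice did not deviate together (r = -0.09 to 0.19 over genes), so the numbers were not used as pairs. The sources used here name no batch. The label numbers were 1 to 7 for controls and 29 to 32, 40 and 42 for STZ mice. An effect tied to those numbers cannot be told apart from that of STZ.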

Additional observations from a re-analysis of the deposited data

Results flagged for a closer look

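The difference of Gsk3b minus Gsk3a in control replicate 4 was -0.97, far above the next control at -1.10: the gap divided by the group's range was 0.571, just past Dixon's critical value of 0.568 for 7 samples. It was the single flag among 28 groups tested, and chance flags about 5% of groups.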

How the results depend on the processing

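Gys2, Ugp2 and the 5 genes that did not pass stayed on their side of the threshold in the 10 other settings fixed for them and in the 13 leave-one-out fits. Leave-one-out differences were -0.48 to -0.39 for Gys2, 0.41 to 0.53 for Ugp2, -0.43 to -0.20 for Gbe1, 0.14 to 0.20 for Gyg, 0.03 to 0.10 for Phka2, 0.28 to 0.65 for Ppp1r3c, -0.15 to -0.07 for Gsk3b, -0.996 to -0.73 for Ppp1r3b and -0.43 to -0.29 for Pygl. The 4 STZ arrays of consecutive label numbers gave 0.12 for Phka2, 0.27 for Ppp1r3c, -0.18 for Gsk3b and -0.44 for Pygl, outside those ranges. With Dbp as a covariate, chosen after seeing the data for its correlation with Gys2, Gys2 passed and Pygl did not (-0.37). Pygl also did not pass with arrays centred on their median (-0.35) or in the exact rank-sum test (-0.35). In the rank-sum test Ppp1r3b (-0.83) did not pass either. That test called 1088 genes against 1819 in limma, 623 higher and 465 lower. Of 31 glycogen genes, 1 was higher and 5 lower in limma. The number higher was 2 with centred arrays, quantile normalization, trend and robust variance, arrayWeights or the 4 STZ arrays of consecutive label numbers, 3 among genes above the median gene, and 1 to 4 in leave-one-out fits, where the 4 came without STZ replicate 3 and 3 came without STZ replicate 5. The number lower was 3 with centred arrays, 1 in the rank-sum test and 3 to 5 in leave-one-out fits. For the pairs, leave-one-out values were -0.56 to -0.45 (Gys2 and Gys1), -0.72 to -0.47 (Pygl and Pygb), -1.51 to -1.07 (Ppp1r3b and Ppp1r3c) and 0.24 to 0.33 (Phka2 and Phka1). With the 4 STZ arrays of consecutive numbers Ppp1r3b minus Ppp1r3c was -1.02 and did not pass. The replicate block, by a number that same-numbered mice only share, gave 524 genes lower against 805, 3 glycogen genes lower and Pygl at -0.35 without a call. In the same pairing the sign-flip test gave -0.47, -0.57, -1.07 and 0.27 for these 4 pairs, none past the threshold. For Gys2 and Gys1 and for Phka2 and Phka1 every pairing went the same way. That gives the smallest p this test can reach, and their adjusted p was 0.0781 (sign-flip test). Of 16 genes of the surrounding lists that passed in limma, 8 did not pass in the rank-sum test (Stbd1 among them) and 7 of the 16 with the replicate block, and none changed sign. The cause of these shifts was not tested.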
